A study of Mus musculus with 18 samples.

Results

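The genes of the Hedgehog pathway core were followed through the stages of ultraviolet-induced skin cancer in the mouse. They are Ptch1, Smo, Hhip, Sufu, Gli1, Gli2, Gli3 and the ligand gene Shh, 8 genes chosen by name. Rows of the expression table were matched by gene symbol, and 7 of the 8 were found among 14521 named genes, while Shh was not analysed here. RNA was sequenced from tissue of 6 female littermate SKH-1E Hairless mice, an outbred strain that lacks the Hairless gene and is prone to skin tumours. Every mouse was chronically irradiated with ultraviolet B and ultraviolet A from a solar simulator, and every sample was taken after the irradiation had stopped. The mice were young adults when irradiation began, and no group was left unirradiated. Each mouse (numbers 2, 3, 7, 8, 9 and 10) gave lesion-free but chronically irradiated skin (CHR), a benign, precancerous papilloma (PAP) and a squamous cell carcinoma of the skin (SCC), so that there were 18 libraries and n = 6 in each group. The tumours were of low to intermediate grade. Since every mouse was irradiated, CHR is a reference for irradiated skin and not for normal skin.

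In the Hedgehog pathway a secreted ligand binds the receptor Ptch1, which otherwise keeps the membrane protein Smo inactive. Released Smo acts in the primary cilium and lets the Gli transcription factors switch on their targets, and Sufu restrains the Gli proteins in the cytoplasm. Gli1, Ptch1 and Hhip are themselves targets, so their transcripts are commonly read as a measure of how active the pathway is. In skin the pathway drives growth of the hair follicle, and its unchecked activity is the hallmark of basal cell carcinoma, a tumour other than the squamous tumours studied here.

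Among the members the transcripts of Smo and Sufu rose in PAP, and the promoter sequences of these genes are shown because of that change. They are the 250 bases before the RefSeq start site in build GRCm38.p6, both on the plus strand, at chr6:29735247-29735496 for Smo and chr19:46396646-46396895 for Sufu. Capitals mark a match to a CCAAT box (letters CCAAT) or a GC box (letters GGGCGG, read on either strand).
Smo: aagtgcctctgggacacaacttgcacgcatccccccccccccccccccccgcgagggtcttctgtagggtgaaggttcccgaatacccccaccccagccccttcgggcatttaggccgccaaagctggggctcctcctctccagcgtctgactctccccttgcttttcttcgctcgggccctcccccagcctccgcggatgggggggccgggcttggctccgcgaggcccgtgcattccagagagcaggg
Sufu: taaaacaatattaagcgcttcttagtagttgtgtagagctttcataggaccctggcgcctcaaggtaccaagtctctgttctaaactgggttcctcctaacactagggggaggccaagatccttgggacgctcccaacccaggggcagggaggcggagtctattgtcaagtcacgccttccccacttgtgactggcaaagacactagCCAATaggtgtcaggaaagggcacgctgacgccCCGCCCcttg

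With the 50 bases after the start site, which are not shown, the Smo window was rich in G and C (67.7%), and the Sufu window less so (56.3%), against a median of 52.7% over the 32851 promoters of the same RefSeq table. For 6 of the 8 genes a promoter was given, and windows from 250 bases before to 50 bases after the start site were searched on both strands for 5 motifs. The Gli motif GACCACCCA was in none of the 6 windows and in 0.253% of all promoters. A GC box was in the windows of Sufu, Gli2, Gli3, Hhip and Ptch1 and in 35.7% of all promoters. The CCAAT box, held by 37.4% of all promoters, was in the window of Sufu alone among the members. No member window held the AP-1 motif TGANTCA (7.81% of promoters) or the ETS motif CCGGAAG (8.86%). The Smo window held none of the 5 motifs. These are matches of letters in short windows, and they say nothing about binding.

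Values are given as normalised read counts, that is, whole reads recovered from the deposited values and divided by the library's scaling factor. Recovered depth was 15.4 to 21 M reads (median 18.9 M). Differences were tested with limma within mice, on log2 of the deposited value plus 1, a scale that understates changes of genes with few reads. A gene is called where the p adjusted over all 14521 genes (Benjamini-Hochberg) was under 0.05. The mouse was the unit of replication, and PAP and SCC were compared with the same 6 CHR samples, so their differences from CHR share these controls. In such bulk tissue, fewer cells of a type and less RNA per cell cannot be told apart.

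The tissues differed widely in what they contained. In PAP vs CHR 52.6% of all genes were called. The summed level of 8 skeletal muscle genes was 378686 to 569054 normalised reads in CHR, 194 to 28201 in PAP and 401 to 188422 in SCC, and all 8 were lower in PAP and in SCC than in CHR. Keratinocyte genes summed to 307005 to 667124 in CHR, 437728 to 899379 in PAP and 159291 to 600464 in SCC, so that the labelled skin origin held in every library. These sums hide gains of single genes. Relative to CHR, limma called 5 of these 8 as raised and 1 as lowered in PAP, with a median log2 difference of 1.475. For SCC it called 5 as raised and 2 as lowered, with a median of 0.762 and a range of -3.03 to 1.44. Dermal fibroblast genes summed to 135359 to 302188 in CHR, 5587 to 164521 in PAP and 18628 to 495930 in SCC. All 8 sebaceous gland genes were lower in both tumour groups, with sums of 46763 to 153988 in CHR, 894 to 6344 in PAP and 1594 to 13681 in SCC. The SCC of mouse 10 stood apart from the other SCC. It had the lowest muscle sum (401) and fibroblast sum (18628) of that group, and on the first principal component, which held 56.6% of the variance, it lay at 59.9, inside the PAP range of 36.3 to 92.1 and above the other SCC (-15.6 to 28.8). The PAP of mouse 2 kept the highest muscle sum of its group (28201, against 1188 or less in the other PAP).

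Set per kilobase of exon merged over all annotated transcripts of a gene, the members spanned a wide range and kept nearly the same order in all groups. The annotation used for counting was not given, so levels compared between genes depend on these merged lengths (14.185 kilobases for Ptch1). Smo was highest, with mean levels of 162 ± 12.2, 334 ± 36.3 and 286 ± 34.2 normalised reads per kilobase (SD, n = 6) in CHR, PAP and SCC. Gli3 came next with 63.0, 79.8 and 113, followed by Sufu with 52.1, 71.3 and 65.3. The ranges of Gli3 and Sufu overlapped in every group. Ptch1 (26.3, 31.2 and 26.3) and Gli2 (23.4, 33.0 and 29.2) also overlapped in every group and changed places. Gli1 was lower, with 10.2 ± 3.55 in CHR, 6.13 ± 3.94 in PAP and 4.88 ± 2.91 in SCC. Hhip was lowest (1.1, 1.35 and 1.88), with a range apart from that of Gli1 in CHR and overlapping with it in PAP and SCC.

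**Figure D1:**
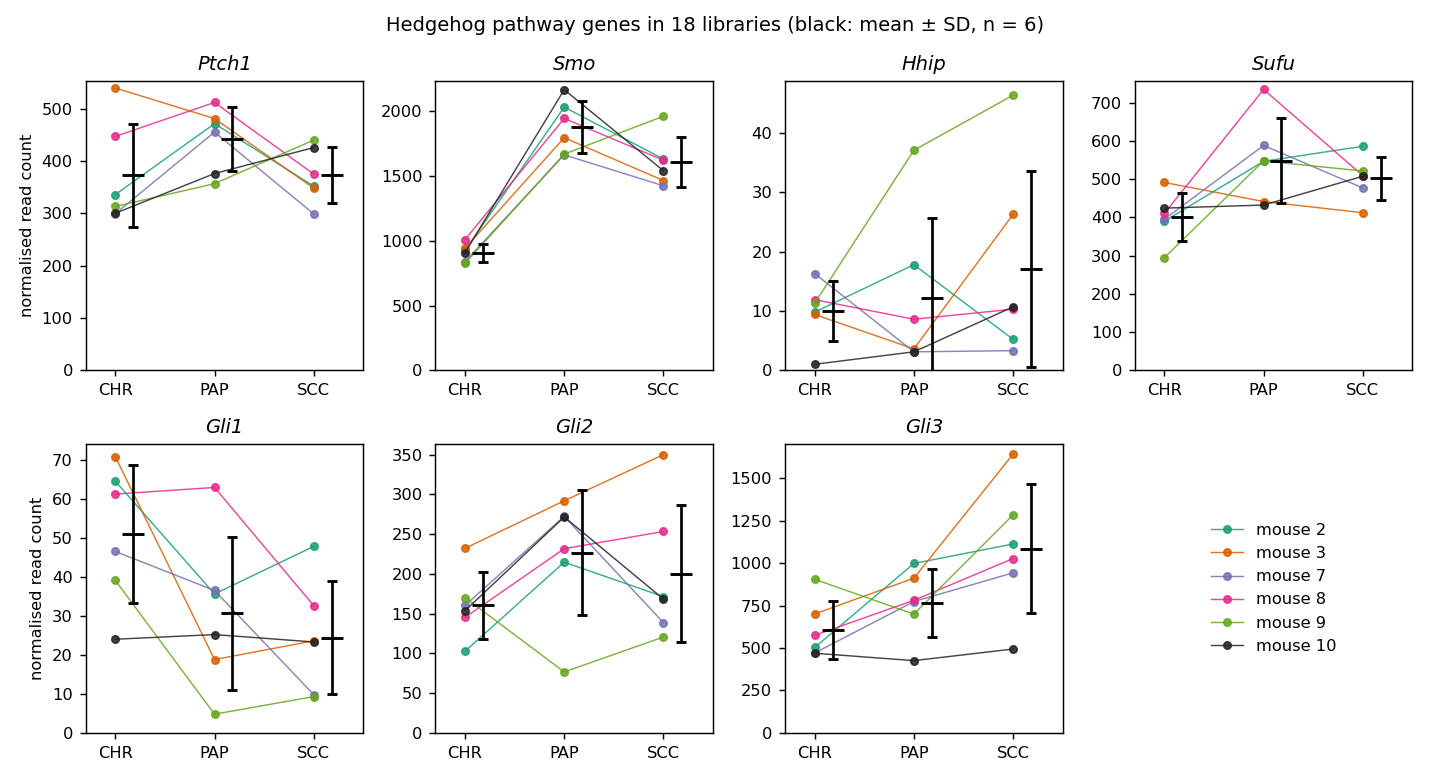
Normalised read count of each member in CHR, PAP and SCC, with 1 line per mouse and the mean ± SD (n = 6) in black. All 6 lines of Smo rise from CHR to PAP, those of Gli3 are highest in SCC in 6 of 6 mice, and Gli1 is lower in SCC than in CHR in 6 of 6 mice.

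In PAP vs CHR 3 of the 7 members were called (42.9%, against the 52.6% of all genes). Smo and Sufu were higher, as were 23.3% of all genes, and Gli1 was lower, as were 29.3%. In SCC vs CHR 3 members were called, against 38.4% of all genes. Here Smo and Gli3 were higher, against 15.8% of all genes, and Gli1 was lower, against 22.7%. In SCC vs PAP limma called 0 of 7 members, against 9.85% of all genes (8.75% higher and 1.1% lower). There 2 members, Smo and Gli3, were under 0.05 before adjustment, and limma-voom on recovered reads called 0. The share of members called was therefore near or below that of all genes in each comparison. The median log2 difference over the 7 members was 0.303 in PAP vs CHR, 0.196 in SCC vs CHR and -0.1 in SCC vs PAP, against 0.001, -0.02 and -0.019 over all genes. Without mouse 10 the members called numbered 3 in PAP vs CHR, 3 in SCC vs CHR and 0 in SCC vs PAP. Of all 14521 genes, 6620, 4678 and 1995 were then called.

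**Figure D2:**
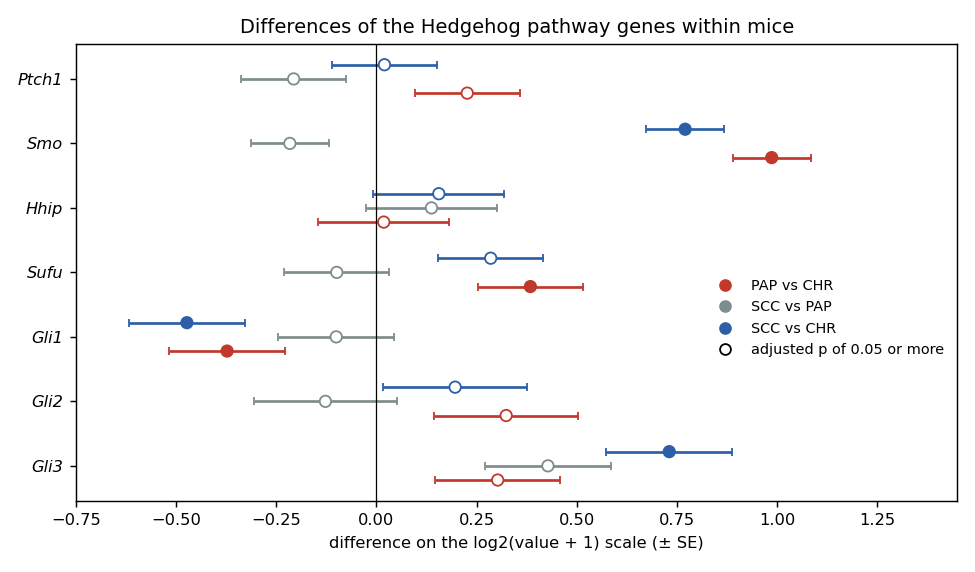
Difference of each member on the log2(value + 1) scale (± SE) in PAP vs CHR, SCC vs PAP and SCC vs CHR, with filled points where the adjusted p of limma was under 0.05. Smo lies farthest to the right in PAP vs CHR (0.99), Gli3 reaches 0.73 in SCC vs CHR, and Gli1 lies to the left in both comparisons with CHR.

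Smo (ENSMUSG00000001761.7, GRCm38 chromosome 6, 29735503 to 29761365) encodes the membrane protein that passes the signal on. Its normalised read count was 825 to 1009 in CHR (median 917), 1664 to 2168 in PAP (median 1871) and 1425 to 1963 in SCC (median 1582). Every tumour of either kind exceeded every CHR sample. Groups that do not overlap were found for 33.6% of all genes between PAP and CHR, and for 19.7% between SCC and CHR. The mean rose 2.07-fold in PAP, by 0.99 ± 0.098 (SE) on the log2(value + 1) scale, with a limma adjusted p of 4.73e-06, and the increase within a mouse was 1.91-fold to 2.39-fold. In SCC it was 1.77-fold above CHR, a log2 difference of 0.77 ± 0.098 with an adjusted p of 0.000104, higher in 6 of 6 mice. These differences were called in 14 of 14 alternative analyses, with a range of 0.95 to 1.05 for PAP and of 0.69 to 0.87 for SCC. Without mouse 10 they were 0.95 (adjusted p 4.48e-05 in limma) and 0.78 (adjusted p 0.000443). SCC lay below PAP in 5 of 6 mice, a log2 difference of -0.22 ± 0.098 that was not called (adjusted p 0.192 in limma). The exception was mouse 9, with 1671 in PAP and 1963 in SCC. Without this mouse the difference was -0.30 (adjusted p 0.0447 in limma). Most keratinocyte genes listed were also raised in both tumour groups, and the part of this cell type in the Smo values was not tested.

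Ptch1 (ENSMUSG00000021466.12, chromosome 13, 63508328 to 63573598) encodes the ligand receptor that restrains Smo and is also a target of the pathway. Its normalised read count was 300 to 540 in CHR (median 325), 357 to 513 in PAP (median 464) and 299 to 441 in SCC (median 364). The 3 groups overlapped, with the highest value of all in the CHR of mouse 3. The log2 difference was 0.23 ± 0.13 in PAP vs CHR, -0.21 ± 0.13 in SCC vs PAP and 0.02 ± 0.13 in SCC vs CHR, with limma adjusted p of 0.165, 0.368 and 0.92. In 5 of 6 mice PAP exceeded CHR, and quantile normalisation, which raised the median of all genes in PAP vs CHR to 0.165, gave a called difference of 0.40 (adjusted p 0.0253 in limma). Within a library, Smo had 1.74 to 3.03 times the normalised reads of Ptch1 in CHR (median 2.69), 3.65 to 5.76 times in PAP (median 4.05) and 3.62 to 4.77 times in SCC (median 4.39). This ratio was chosen after the values had been seen and is given without a test.

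Hhip (ENSMUSG00000064325.4, chromosome 8, 79965851 to 80058006) encodes a cell surface protein that binds Hedgehog ligands and is likewise a target. It was near the limit of detection, with 1 to 14 reads per library in CHR, 3 to 31 in PAP and 3 to 50 in SCC. The normalised read count was 0.96 to 16.3 in CHR (median 10.5), 3.13 to 37.1 in PAP (median 6.1) and 3.27 to 46.4 in SCC (median 10.5). The highest value of both tumour groups was that of mouse 9. Log2 differences were 0.02 ± 0.16 in PAP vs CHR, 0.14 ± 0.16 in SCC vs PAP and 0.16 ± 0.16 in SCC vs CHR, with limma adjusted p of 0.934, 0.66 and 0.477, so that no difference was detectable at this depth. Quantile normalisation gave 0.51 in PAP vs CHR (adjusted p 0.0213 in limma), and 4 other alternatives gave a value below 0 there.

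Sufu (ENSMUSG00000025231.17, chromosome 19, 46396896 to 46488804) encodes the protein that holds Gli factors back. Its normalised read count was 294 to 491 in CHR (median 403), 432 to 735 in PAP (median 547) and 412 to 586 in SCC (median 508). The groups overlapped. Mouse 3 was the exception to the increase, going from 491 in CHR down to 441 in PAP and 412 in SCC. The mean rose 1.37-fold in PAP, a log2 difference of 0.38 ± 0.13 with a limma adjusted p of 0.0253, in 5 of 6 mice. This call was held by 9 of 14 alternatives. It was lost when only PAP and CHR were fitted (adjusted p 0.0521 in limma) and without mouse 2 (0.0564), mouse 7 (0.078), mouse 8 (0.101) or mouse 9 (0.0832). In SCC vs CHR the log2 difference was 0.29 ± 0.13 (adjusted p 0.102 in limma), and it was called without mouse 3 (0.0436), on total-read scaling (0.0481) and after quantile normalisation (0.0303). SCC vs PAP gave -0.10 ± 0.13 (adjusted p 0.698 in limma).

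Gli1 (ENSMUSG00000025407.7, chromosome 10, 127329882 to 127341974) encodes the activator whose own transcription follows the pathway. It was weakly expressed, with 24.0 to 70.8 normalised reads in CHR (median 53.8), 4.79 to 62.9 in PAP (median 30.4) and 9.28 to 47.8 in SCC (median 23.4). The groups overlapped, since the CHR of mouse 10 (24.0) was the lowest of CHR and the PAP of mouse 8 (62.9) was above 4 of the CHR samples. The mean in PAP was 0.601 times that in CHR, a log2 difference of -0.37 ± 0.15 with a limma adjusted p of 0.0455 (4 of 6 mice lower). In SCC it was 0.479 times that in CHR, a log2 difference of -0.47 ± 0.15 with an adjusted p of 0.0212, and every mouse had less in SCC, although in mouse 10 only 23.3 after 24.0. On recovered reads, whose scale is not compressed, limma-voom gave -0.80 (adjusted p 0.0594) for PAP and -1.07 (adjusted p 0.0263) for SCC.

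These calls of Gli1 were held by 6 and 9 of 14 alternatives. Without the mouse block the limma adjusted p was 0.106 for the papillomas and 0.0565 for the carcinomas. The PAP vs CHR call was also lost with only these groups fitted (0.0738 in limma), on log2(normalised read count + 1) (0.0518) and without mouse 2 (0.0885), mouse 3 (0.169) or mouse 9 (0.165). The SCC vs CHR call was lost without mouse 3 (0.065 in limma), mouse 7 (0.0633) or mouse 9 (0.0571). Quantile normalisation turned the direction in PAP vs CHR to 0.18 (adjusted p 0.388 in limma) and left -0.18 in SCC vs CHR (adjusted p 0.396). Gli1 shares 1.24% of its exon bases with Arhgap9, and 5.31% with a noncoding gene, both on the opposite strand, and whether reads were counted by strand was not stated.

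Gli2 (ENSMUSG00000048402.14, chromosome 1, 118834132 to 119053619) encodes the main activator among the Gli factors. Its normalised read count was 103 to 232 in CHR (median 157), 76.7 to 292 in PAP (median 252) and 121 to 350 in SCC (median 170). PAP exceeded CHR in 5 of 6 mice, and mouse 9, with 170 in CHR and 76.7 in PAP, went the other way. Relative to CHR the log2 difference was 0.32 ± 0.18 in PAP and 0.20 ± 0.18 in SCC, with limma adjusted p of 0.147 and 0.409. Without mouse 9 the value in PAP vs CHR was 0.54 (adjusted p 0.0089 in limma), and after quantile normalisation 0.67 (adjusted p 0.00651). SCC vs PAP gave -0.13 ± 0.18 (adjusted p 0.719 in limma), with SCC higher in 3 of 6 mice.

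Gli3 (ENSMUSG00000021318.15, chromosome 13, 15463235 to 15730026) encodes the Gli factor that acts mostly as a repressor when the pathway is off. Its normalised read count was 469 to 905 in CHR (median 539), 426 to 998 in PAP (median 778) and 494 to 1642 in SCC (median 1070). SCC had the highest value of the 3 samples in 6 of 6 mice. The groups still overlapped, because the CHR of mouse 9 stood at 905 and the SCC of mouse 10 at 494. The mean in SCC was 1.80 times that in CHR, a log2 difference of 0.73 ± 0.16 with a limma adjusted p of 0.003, and within a mouse 1.05-fold to 2.34-fold. The smallest change was that of mouse 10, and without this mouse the difference was 0.86 (adjusted p 0.00204 in limma). The call was held by 14 of 14 alternatives, with values of 0.65 to 0.86. Between PAP and SCC the difference of 0.43 ± 0.16, although in the same direction in 6 of 6 mice, was not called (adjusted p 0.106 in limma), nor was it in any of the alternatives, whose adjusted p was 0.0668 to 0.291. In PAP vs CHR it was 0.30 ± 0.16 (adjusted p 0.122 in limma), and 0.43 without mouse 9 (0.0419). The dermal fibroblast sum was 18628 in the SCC of mouse 10 and 122494 to 495930 in the other SCC, and the part of this cell type in the Gli3 values was not tested.

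Gene changes were also assigned to stages by unadjusted p under 0.05 in the same fit. A gene needed a difference in SCC vs CHR, and was early with a like difference in PAP vs CHR, late with one in SCC vs PAP, and stepwise with both. Smo, Sufu and Gli1 fell in the early class, as did 40.7% of all genes. Gli3 fell in the late class, which held 299 genes (2.06%). Ptch1, Hhip and Gli2 were in no class. Gli3 relative to Gli1 within a library was 7.8 to 23.2 in CHR, 12.4 to 146 in PAP and 21.2 to 138 in SCC, a ratio of normalised reads chosen after the values had been seen.

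**Figure D3:**
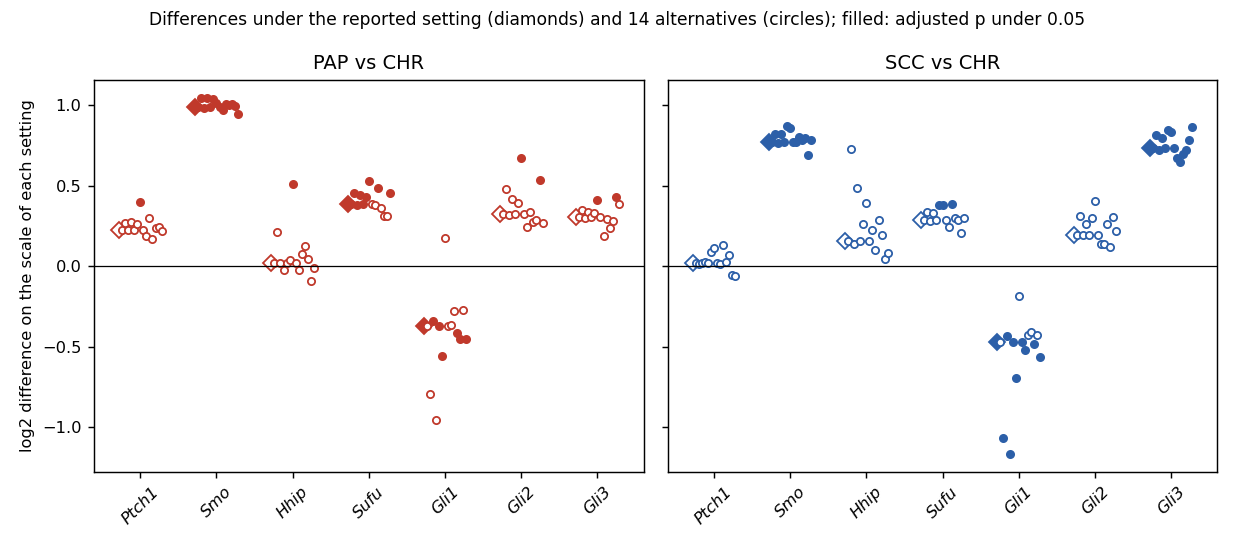
Log2 difference of each member in PAP vs CHR and SCC vs CHR as reported (diamonds) and under 14 alternatives (circles), filled where the adjusted p was under 0.05, each on the log2 scale of its own setting. Smo in both comparisons and Gli3 in SCC vs CHR are filled throughout, while Gli1 spans -0.95 to 0.18 in PAP vs CHR.

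After the group mean and the mouse mean were subtracted, the members were compared over the 18 libraries, which leaves 10 residual degrees of freedom. Pearson's r was 0.67 between Gli2 and Gli3, 0.57 between Gli1 and Gli2, 0.56 between Ptch1 and Sufu, 0.51 between Ptch1 and Smo and 0.46 between Ptch1 and Gli1. Among the 21 pairs the lowest was -0.35, between Sufu and Gli2. The genes most like Ptch1 among 12700 compared were Cox18 (0.93), Lyrm1 (0.91) and Fam83f (0.90). These values are descriptions, since libraries share tissue makeup. For Gli1 no such search was made, because its mean was under 50 normalised reads.

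Other genes of the pathway were taken from lists by role, of which 52 of 57 were in the table. In PAP vs CHR 6 of them were higher and 18 lower (46.2% called, below the 52.6% of all genes), with a median log2 difference of -0.232. SCC differed from CHR in 13 of them (25.0%, against 38.4% of all genes), 4 higher and 9 lower, with a median of -0.147. It differed from PAP in 4 (7.69%, against 9.85% of all genes), all higher, with a median of 0.102. Without mouse 10 the number called was 24, 10 and 7 in the same order, against 6620, 4678 and 1995 of all 14521 genes.

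Of the genes for ligands, their release and their receptors, 12 of 16 were in the table, and in PAP 8 were lower than in CHR (66.7%, against 29.3% of all genes) and 0 higher (against 23.3%). Dhh, which encodes the Desert hedgehog ligand made by Schwann cells, was at 32.3 to 44.1 normalised reads in CHR and at 1.05 to 6.89 in 5 of the PAP, with 41.6 in the PAP of mouse 2. Its log2 difference in PAP vs CHR was -0.73 ± 0.18 with a limma adjusted p of 0.00414 (5 of 6 mice lower). In SCC it was at 8.95 to 54.7 (log2 difference from CHR -0.26, adjusted p 0.272 in limma). Of the Schwann cell genes 6 of 7 were lower in PAP and 5 of 7 in SCC, with sums of 2700 to 4414 in CHR, 1362 to 2296 in PAP and 1300 to 2008 in SCC, and their part in this result was not tested. Hhat, the acyltransferase that attaches palmitate to the ligand, fell by 0.41 ± 0.13 in PAP (adjusted p 0.0216 in limma), lower in 6 of 6 mice. This decrease turned to 0.12 after quantile normalisation.

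Disp1, which exports the lipid-bearing ligand, had 164 to 333 normalised reads in CHR and 27.3 to 186 in PAP, a log2 difference of -0.91 ± 0.21 (adjusted p 0.00254 in limma), and was lower in 6 of 6 mice. Its paralog Disp2 was 3.84 to 40.6 in CHR and 32.2 to 127 in SCC, a rise of 0.83 ± 0.21 (adjusted p 0.00804 in limma) in 6 of 6 mice. Scube2, a secreted factor that helps to release the ligand, had 311 to 655 normalised reads in CHR, 4.2 to 185 in PAP and 8.35 to 182 in SCC, and neither tumour group overlapped with CHR. The log2 difference was -1.86 ± 0.35 in PAP (adjusted p 0.000704 in limma) and -1.87 ± 0.35 in SCC (adjusted p 0.00131), lower in 6 of 6 mice in both. Scube3, of the same family, fell by 0.47 ± 0.13 in PAP (adjusted p 0.00711 in limma), in 5 of 6 mice, and this turned to 0.08 after quantile normalisation.

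The co-receptors help Ptch1 to bind the ligand. Cdon fell from 982 to 1481 in CHR to 281 to 783 in PAP, a log2 difference of -1.16 ± 0.21 (adjusted p 0.000448 in limma), and also in SCC (-0.61, adjusted p 0.032). Boc was called in SCC vs CHR (-0.68 ± 0.24, adjusted p 0.0412 in limma), had a PAP vs CHR value of -0.43 (adjusted p 0.158), and SCC vs PAP gave -0.26 (adjusted p 0.571). The third co-receptor, Gas1, had a difference of 0.54 in PAP (adjusted p 0.105 in limma) and 0.66 in SCC (adjusted p 0.0656).

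Glypicans are membrane proteoglycans, of which Gpc3 competes for the ligand with Ptch1. Gpc3 had 158 to 473 normalised reads in CHR, 2.1 to 225 in PAP and 23.3 to 432 in SCC. It fell in PAP vs CHR (-1.64 ± 0.32, adjusted p 0.000904 in limma) and rose in SCC vs PAP (1.33 ± 0.32, adjusted p 0.0235), each in 6 of 6 mice. Gpc6 was called in the same comparisons, with -1.84 ± 0.31 in PAP vs CHR (adjusted p 0.000301 in limma) and 1.20 ± 0.31 in SCC vs PAP (adjusted p 0.0296). Gpc4 had no called difference, with values of -0.40 in PAP and -0.39 in SCC relative to CHR (adjusted p 0.359 and 0.396 in limma). SCC lay below CHR in 6 of 6 mice, and these groups did not overlap, as for 19.7% of all genes. PAP lay above CHR in 3 mice and below it in 3. Without mouse 10 the PAP vs CHR difference of Gpc4 was 0.12 (adjusted p 0.548 in limma). Dermal fibroblast genes were lower in PAP for 6 of 8, and in SCC vs PAP 2 of 8 were higher, and their part in these changes was not tested.

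**Figure D4:**
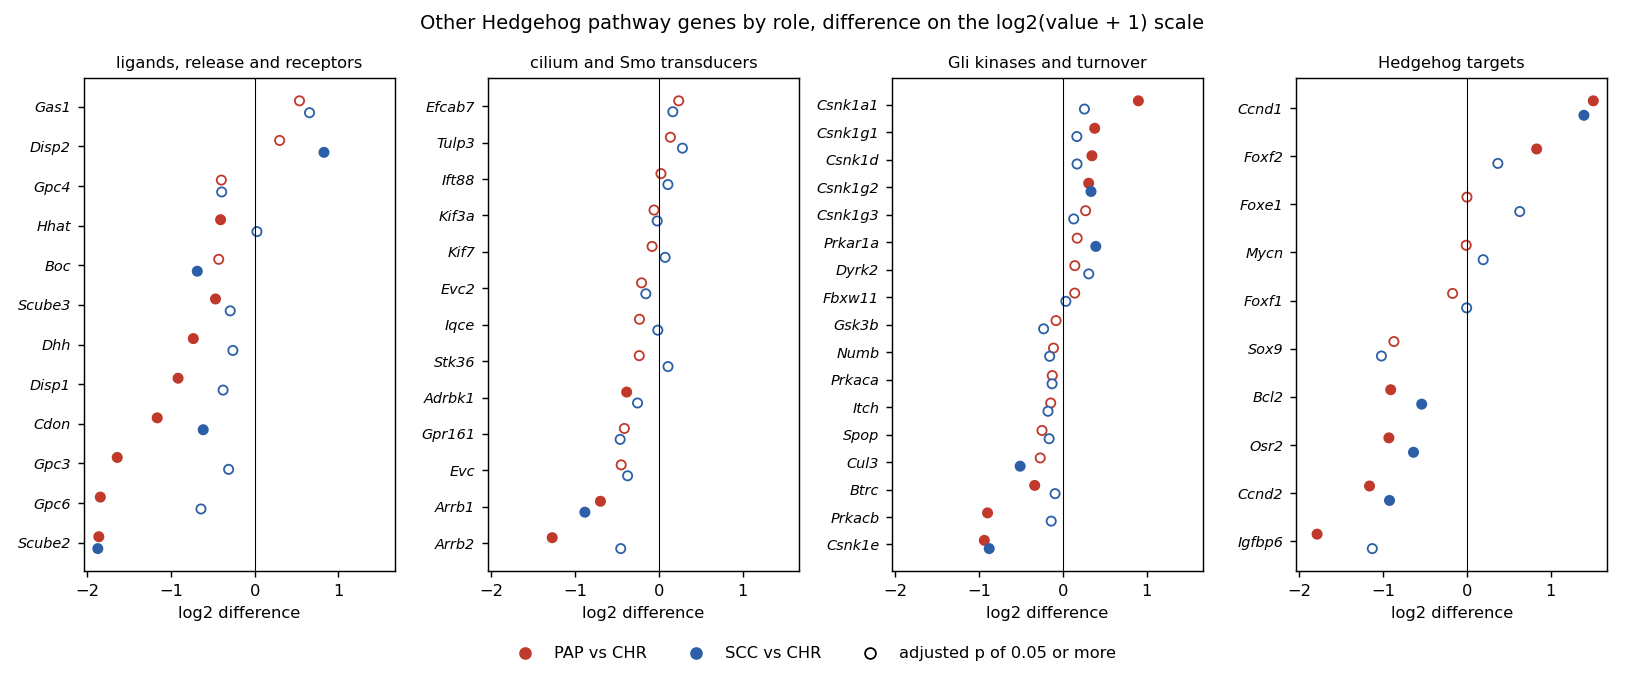
Log2 differences of the other pathway genes in PAP vs CHR (red) and SCC vs CHR (blue), in 4 panels by role, with open points where the adjusted p was 0.05 or more. Red filled points of the ligand and receptor panel all lie to the left of 0, from -1.86 for Scube2 to -0.41 for Hhat, while casein kinases lie on both sides of 0 in the panel of Gli kinases.

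Among genes of the cilium and of Smo transduction, 3 of 13 were lower in PAP (23.1%, against 29.3% of all genes) and 0 higher (against 23.3%). In SCC vs CHR 1 was lower (7.69%, against 22.7% of all genes). The arrestins bind activated Smo and help it into the cilium. Arrb2 had 723 to 1235 normalised reads in CHR, 195 to 527 in PAP and 381 to 1589 in SCC. It fell by 1.27 ± 0.20 in PAP (adjusted p 0.000179 in limma), without overlap, and was higher in SCC than in PAP by 0.82 ± 0.20 (adjusted p 0.0252). Of 8 myeloid genes 7 were lower in PAP than in CHR and 7 higher in SCC than in PAP, with sums of 36973 to 59597 in CHR, 1852 to 9364 in PAP and 4818 to 53062 in SCC, and their part in the Arrb2 values was not tested. Arrb1 fell in PAP (-0.70 ± 0.16, adjusted p 0.00237 in limma) and in SCC (-0.88 ± 0.16, adjusted p 0.000921). The third gene called was Adrbk1, which encodes a kinase that phosphorylates activated Smo. Genes of the cilium machinery such as Kif7, Kif3a, Ift88 and Evc2 were not called in these comparisons.

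Kinases and ubiquitin ligase parts that set Gli processing were called in 7 of 17 cases in PAP vs CHR, 4 higher and 3 lower, a share of 41.2% against 52.6% of all genes. Csnk1a1, a casein kinase that phosphorylates Gli proteins, rose from 13010 to 18920 normalised reads in CHR to 24990 to 29740 in PAP. Its log2 difference was 0.90 ± 0.19 (adjusted p 0.00161 in limma), with a rise in 6 of 6 mice. The other kinases called higher were Csnk1g1, Csnk1g2 and Csnk1d, of the same family. Csnk1e went the other way, with -0.94 ± 0.18 in PAP (adjusted p 0.000785 in limma) and -0.88 ± 0.18 in SCC (adjusted p 0.00224), and did not overlap with CHR in either. Prkacb, a catalytic subunit of protein kinase A, fell from 1667 to 2404 in CHR to 349 to 1579 in PAP (-0.90 ± 0.20, adjusted p 0.00242 in limma) and was higher in SCC than in PAP in 6 of 6 mice (0.76 ± 0.20, adjusted p 0.0334). The third gene called lower was Btrc, the substrate receptor of the ligase that starts Gli processing. Relative to CHR, SCC had 2 genes higher (Csnk1g2 and Prkar1a) and 2 lower (Csnk1e and Cul3). This was 23.5% called, below the 38.4% of all genes. Cul3, the scaffold of a ligase that degrades Gli proteins, had a log2 difference of -0.51 ± 0.11 there (adjusted p 0.00386 in limma), and -0.27 in PAP (adjusted p 0.0614).

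Of 11 genes listed as Hedgehog targets, 10 were in the table, and in PAP vs CHR 2 were higher and 4 lower (60.0% called, against 52.6% of all genes). All of them also answer to other pathways. Ccnd1, the cyclin of the G1 phase, rose from 1713 to 2357 normalised reads in CHR to 4183 to 9626 in PAP and 4494 to 8563 in SCC, without overlap. Its log2 difference was 1.51 ± 0.20 in PAP (adjusted p 4.19e-05 in limma) and 1.40 ± 0.20 in SCC (adjusted p 0.000217), in 6 of 6 mice. The related Ccnd2 moved in the opposite direction, with -1.16 ± 0.32 in PAP (adjusted p 0.00816 in limma) and -0.93 ± 0.32 in SCC (adjusted p 0.0359). Foxf2, a forkhead factor, had 3.91 to 14.8 normalised reads in CHR and 18.1 to 116 in PAP, a rise of 0.83 ± 0.19 (adjusted p 0.00246 in limma), while in SCC its difference from CHR was 0.37 (adjusted p 0.139).

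Bcl2, which restrains apoptosis, fell from 496 to 654 in CHR to 131 to 454 in PAP (-0.91 ± 0.16, adjusted p 0.000475 in limma) and 254 to 451 in SCC (-0.54 ± 0.16, adjusted p 0.0193). Osr2 had 20.9 to 73.8 normalised reads in CHR and 0 to 9.59 in PAP, a log2 difference of -0.93 ± 0.21 (adjusted p 0.00246 in limma), and -0.64 in SCC (adjusted p 0.0294). Igfbp6, which binds insulin-like growth factor, fell by 1.79 ± 0.46 in PAP (adjusted p 0.0056 in limma), in 5 of 6 mice, and had a difference of -1.13 in SCC (adjusted p 0.0684). Among the members that are used as readouts of the pathway, Gli1 was called lower in PAP, a call held by 6 of 14 alternatives. Ptch1, higher in PAP in 5 of 6 mice, and Hhip, higher in 3 of 6, were not called.

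Of the other pathway genes given here by value, 19 were called in PAP vs CHR, and 15 of these calls were held by all 14 alternatives. Those of Dhh, Osr2 and Scube3 were lost after quantile normalisation alone, and that of Hhat also without mouse 3, 8 or 10. In SCC vs CHR 6 of 11 calls were held by all alternatives, namely those of Arrb1, Ccnd1, Csnk1e, Cul3, Disp2 and Scube2. Bcl2 was lost on total-read scaling and without mouse 9. Cdon was held by 8 alternatives and lost without mouse 8, 9 or 10, Boc by 8 and lost without mouse 3, 7, 8 or 9, Ccnd2 by 8 and lost without mouse 3, 7, 8, 9 or 10, and Osr2 by 7 and lost without mouse 3, 8, 9 or 10. In SCC vs PAP 0 of the 4 calls were held by all alternatives. Gpc3, Gpc6, Arrb2 and Prkacb were each lost without the mouse block, with only these groups fitted and without mouse 3, 7 or 8, and the glypicans also without mouse 2.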

How the data were processed

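RNA of 18 tissue samples was sequenced as paired-end reads. The authors used MOSAIK to align reads to mm10 and HTSeq to count them per gene, and then scaled the counts by library and applied a variance-stabilizing transformation, for which no tool is named. The deposited values are a score on the linear scale of that transformation, as whole numbers, in which 0 reads appear as 39. A scaling of medians between batches is mentioned in their methods. Versions, annotation release and strandedness were not given in the sources used here. Of 14542 entries, 21 had no gene symbol (at most 0.236% of a library) and were not tested.

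The transformation was inverted with a fitted zero level of 39.13 and size factors of 0.834 to 1.18, and 99.2% of values came out as the exact deposited number from whole reads. The test was limma 3.58.1 (R 4.3.3) with eBayes on log2(value + 1), two-sided, with all 18 libraries in 1 fit and the mouse as a block. A count model was not used as the main test, because the values are transformed. The script was tested on simulated data. The 3 samples of a number come from 1 mouse, which is where the pairing comes from. Deviations from group means correlated between same-numbered samples with r of -0.24 to 0.51.

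Genes were matched to GENCODE M21 (GRCm38) for positions and exon lengths. The members and lists were chosen with earlier results of these data known. Named were all members, the 20 other pathway genes with the largest log2 difference among those called, and every gene of the ligand and receptor list with a row. A further gene was left out of that list and of its counts and is not reported here. Further called genes named by role (Adrbk1, Csnk1g1, Csnk1g2, Csnk1d, Btrc and Prkar1a), and Kif7, Kif3a, Ift88 and Evc2, were chosen after their values were seen. The likeness search took the 3 genes with the highest residual r. The 14 alternatives were no mouse block, limma-voom on recovered reads, log2(value + 10), log2(normalised read count + 1), at least 10 reads in 6 libraries, total-read scaling, quantile normalisation, only the 2 groups compared, and each of 6 mice left out.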

Additional observations from a re-analysis of the deposited data

Results flagged for a closer look

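Each of 31 genes was examined in each group of 6 for a sample far from the others (Dixon's test, critical value 0.625). Of 93 groups 6 (6.45%) had one, and chance gives about 1 in 20 (5%). Among the members, Hhip stood at 0.96 normalised reads in the CHR of mouse 10, below 9.37 to 16.3 in the other CHR, and Gli2 stood at 76.7 in the PAP of mouse 9, below 215 to 292 in the other PAP. Among the other pathway genes, 3 of the far values lay in the PAP of mouse 10. There Prkacb was at 349 (others 1100 to 1580), Gpc4 at 77.6 (others 513 to 957) and Disp2 at 80.8 (others 13.2 to 28.2). Dhh was at 41.6 in the PAP of mouse 2 (others 1.05 to 6.89), the PAP with the highest muscle sum.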

How the results depend on the processing

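Over 14 alternatives, 258 of 294 member differences kept their direction and their side of the threshold, as did 915 of 1008 of the other pathway genes and 108 of 126 counts within 1.5 times. The cause of the changes below was not tested.

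The mouse block is part of the reported analysis. With no replicate block, the pairing ignored, SCC vs PAP had 810 called genes (1430 with it) and 0 called other pathway genes (4 with it), and both Gli1 calls were lost, which were the calls it changed among the members. With only the 2 groups compared, SCC vs PAP had 0 called genes in limma (2830 at unadjusted p under 0.05) and 0 other pathway genes. Limma-voom was run with all 18 libraries in the fit, and there it called 1742 genes in SCC vs PAP. PAP vs CHR had 1 called member with only its 2 groups fitted, where 7768 of 14521 genes were called. Quantile normalisation called 6 members in PAP vs CHR, where it called 8550 of all 14521 genes. It shifted the median of all genes there to 0.165 and in SCC vs CHR to 0.098, and the share of calls that were higher from 44.4% to 62.4% in PAP vs CHR, from 88.8% to 68.5% in SCC vs PAP and from 41% to 57.8% in SCC vs CHR.

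With 1 mouse left out, genes called in SCC vs PAP were 0 to 1995, with 0 without mouse 7 (2450 at unadjusted p under 0.05) or mouse 8 (2594), 471 without mouse 3 and 1995 without mouse 10 (79.2% higher). Other pathway genes called were 0 to 7 in SCC vs PAP (0 without mouse 3, 7 or 8, and 7 without mouse 10) and 6 to 16 in SCC vs CHR (8 without mouse 3 or 8, 6 without mouse 9). Members called were 1 to 3 in PAP vs CHR (1 without mouse 2) and 0 to 1 in SCC vs PAP (1 without mouse 9). Of all 14521 genes, 6545 to 7319 were called in PAP vs CHR (7225 without mouse 2). In SCC vs CHR 4214 to 5482 genes were called, and without mouse 9 SCC vs PAP had 1608.

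Reversed directions in PAP vs CHR were those of Gli1 (0.18), Hhat (0.12) and Scube3 (0.082) after quantile normalisation and of Hhip on log2(normalised read count + 1) (-0.024). In SCC vs PAP they were those of Hhip (-0.12), Scube3 (-0.085) and Gpc4 (-0.11) after quantile normalisation, of Gpc4 in limma-voom (-0.048) and with log2(value + 10) (-0.0023), and of Scube2 on log2(normalised read count + 1) (0.032) and total-read scaling (0.0097). In SCC vs CHR it was that of Dhh after quantile normalisation (0.0072). With 1 mouse left out, the differences that changed sign were not called in the reported analysis. Their ranges were -0.092 to 0.12 for Hhip and -0.60 to 0.12 for Gpc4 in PAP vs CHR, and -0.059 to 0.13 for Ptch1 and -0.099 to 0.15 for Hhat in SCC vs CHR. In SCC vs PAP they were -0.16 to 0.0039 for Gli1, -0.46 to 0.28 for Scube2, -0.34 to 0.079 for Ccnd1, -0.099 to 0.19 for Csnk1e, -0.030 to 0.25 for Gas1 and -0.34 to 0.19 for Gpc4.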
